A study of Mus musculus with 24 samples.

Results

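The genes described here are 41 genes of DNA replication in mouse acute myeloid leukaemia cells, chosen as the rows of the expression table that carry a list of symbols for origin, helicase, clamp, polymerase, chromatin assembly, cyclin E and deoxynucleotide genes. All 41 were found among the 23361 rows of the table, and all passed the filter on low values with 11599 rows in all. The measurement was RNA sequencing of total RNA, given as FPKM, the fragments mapped to a transcript scaled by its length and by the size of the library. No member fell below 1 FPKM in any of the 24 libraries, and the values ran from 2.23 to 288 FPKM.

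Every library was labelled as leukaemia cells of the genotype NRASG12V/Mll-AF9 in F1 mice of a cross of FVB/n and C57/BL/6J, taken from spleen. NRASG12V is an activated RAS protein and Mll-AF9 a fusion gene that drives myeloid leukaemia. The cells were either left unsorted (5 libraries) or sorted by the surface proteins Mac-1, Kit and Sca-1 into MacHigh (5 libraries), MacLowKit-Sca1- (5 libraries), MacLowKit+Sca1- (5 libraries) and MacLowKit+Sca1+ (4 libraries). The last 3 groups are written below as Kit-Sca1-, Kit+Sca1- and Kit+Sca1+. All groups carry this label, so no group of normal cells and no untreated control stands beside them. The label does not say that every cell in a library carries both oncogenes. The labels name neither the promoter that drives NRASG12V nor separate animals for the libraries of a group, so the p-values below measure the spread between these libraries, which may be technical.

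DNA replication begins when the origin recognition complex, with Cdc6 and Cdt1, loads the ring of MCM proteins onto DNA. Cyclin E and its kinase help to start the S phase, when Cdc45 and the GINS complex turn the ring into a moving helicase, primase and the polymerases copy the strands on the sliding clamp, and the lagging strand pieces are trimmed and joined. Many of these genes are known targets of E2F transcription factors, which are held back by the retinoblastoma protein pRb until a cell commits to division. Genes of mitosis are switched on later in the cycle, largely through other promoter elements.

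The DNA around the starts of the members is shown first. Of the 41 members, 33 had a promoter in the RefSeq table (mouse build GRCm38.p6, 250 bases before to 50 bases after the start). The E2F letters searched were TTTGGCGC, TTTCCCGC, TTTCGCGC and TTTGCCGC, on both strands, and matches on opposite strands may overlap. They were found for 13 of the 33 members (39.4%), against 424 of the 8663 tested genes with a promoter (4.89%) and 704 of all 27025 genes with a promoter (2.6%). The letters CCAAT, the CCAAT box, were in 63.6% of the members, 43.3% of the tested genes and 87.5% of 24 mitotic genes. The letters TTTGAA, the cell cycle homology region, were in 12.1% of the members, 14.4% of the tested genes and 75% of the mitotic genes, of which 4.17% held the E2F letters. A match describes the letters and is not evidence of binding. Whether members with and without a match differ in their expression was not tested.

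The 250 bases before the start of Mcm5 and Mcm6, subunits of the MCM ring, are printed because each holds E2F letters that overlap on both strands. Capitals mark the E2F letters or their reverse complement, and both stretches are written 5′ to 3′ on the strand of the gene, from RefSeq GRCm38.p6. The stretch of Mcm5 is chr8:75109259-75109508 on the plus strand and that of Mcm6 is chr1:128359706-128359955 on the minus strand.
Mcm5: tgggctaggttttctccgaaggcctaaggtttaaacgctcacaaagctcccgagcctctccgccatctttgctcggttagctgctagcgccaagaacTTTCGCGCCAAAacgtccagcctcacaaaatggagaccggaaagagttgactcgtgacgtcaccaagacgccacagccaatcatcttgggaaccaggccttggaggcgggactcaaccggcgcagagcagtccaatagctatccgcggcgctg
Mcm6: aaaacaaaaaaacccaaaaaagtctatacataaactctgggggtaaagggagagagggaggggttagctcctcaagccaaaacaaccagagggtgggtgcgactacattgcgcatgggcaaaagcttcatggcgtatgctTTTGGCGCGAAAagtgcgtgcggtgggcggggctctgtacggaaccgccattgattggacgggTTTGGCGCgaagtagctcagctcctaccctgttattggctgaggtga

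In Mcm5 the overlapping match ends 141 bases before the start, and in Mcm6 one such match ends 98 bases and a second, single match 39 bases before it. The start is that of the promoter entry, which can lie inside the gene. The RefSeq gene of Mcm5 begins at chr8:75109468, within the printed stretch. The sites printed below for Orc1, Cdc6, Mcm7, Pola1 and Uhrf1 lie before the start of their entry but inside the gene. Shorter stretches around a match follow for 8 members of 5 roles, chosen among the members that hold the letters. They are the sites of Orc1 (chr4:108579416-108579445, plus strand), Cdc6 (chr11:98908002-98908031, plus), Mcm7 (chr5:138172030-138172059, minus), Gins3 (chr8:95633507-95633536, plus), Pola1 (chrX:93632275-93632304, minus), Pold1 (chr7:44548766-44548787, minus), Lig1 (chr7:13278841-13278870, plus) and Uhrf1 (chr17:56304117-56304146, plus).
Orc1: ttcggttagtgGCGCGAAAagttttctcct
Cdc6: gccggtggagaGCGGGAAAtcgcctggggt
Mcm7: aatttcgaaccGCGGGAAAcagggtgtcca
Gins3: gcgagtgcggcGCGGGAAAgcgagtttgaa
Pola1: gtcatcacaggGCGCCAAAtgcactcccgc
Pold1: cgtatcttgtgGCGGGAAAagc
Lig1: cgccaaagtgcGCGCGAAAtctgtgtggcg
Uhrf1: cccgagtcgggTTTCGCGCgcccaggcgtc

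Across the 13 genes there were 17 separate stretches with a match, 12 of them between 100 bases before and 50 bases after the start, and 5 members held 2 matches or more. Of these stretches 10 lay before the start of the promoter entry, some of them inside the gene. The deoxynucleotide genes Rrm1, Rrm2, Tyms and Tk1 held no match, and neither did Ccne1, the only cyclin E gene with a promoter in the RefSeq table. Members without a match in other roles included Pcna, Mcm2, Mcm10 and Cdc45. The printed sites of Pold1 and Lig1 lie after the start, beginning at base 40 and base 27 counted from it. Lig1, Mcm7 and Uhrf1 have more than 1 promoter window, and a match was found in only 1 window of each. The members lie on 14 chromosomes. Exons of 12 members overlap an exon of a protein-coding gene on the opposite strand. The longest overlaps are of Gins2 with Gse1 (2758 bases), Chaf1a with Ubxn6 (1277 bases), Rfc2 with Lat2 (952 bases) and Rfc5 with Wsb2 (499 bases). Overlaps of 52 to 247 bases include Mcm7 with Ap4m1 and Cops6, Cdc45 with Ufd1, Rfc4 with Eif4a2, Lig1 with Zswim9 and Ccne2 with Ints8. Whether the authors' counting used strand is not given in the sources used here, so the levels of these 12 members are uncertain to that extent.

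The sort was visible in the RNA. Itgam, which encodes a chain of Mac-1, stood at 582 to 693 FPKM in MacHigh and 39.2 to 422 FPKM in the other sorted groups. Kit was at 26.8 to 54.1 FPKM in both Kit+ groups and 0.487 to 0.895 FPKM in Kit-Sca1-, and Ly6a, which encodes Sca-1, at 5.64 to 9.75 FPKM in Kit+Sca1+ against 0.254 to 3.46 FPKM in the other sorted groups. The granule genes Mpo and Elane were listed at 0.001 FPKM, the lowest value in the table, in all 5 Kit+Sca1- libraries, against 64.4 FPKM or more in each other library, and such an entry can be a failed estimate. The B cell genes Pax5 and Ebf1 were listed at 0.001 FPKM throughout. The files give no read counts, so the depth of each library is unknown.

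All 41 members differed among the 4 sorted groups in the moderated F test of limma at an adjusted p under 0.05, beside 83.2% of all rows tested. In 33 members the group means had one order, from MacHigh over Kit+Sca1+ and Kit-Sca1- to Kit+Sca1-, which was highest. In 7 more, Orc6, Mcm3, Gins1, Gins2, Pola1, Rpa1 and Fen1, the order differed only in that Kit-Sca1- stood above Kit+Sca1-. The remaining member, Ccne1, was lowest in Kit+Sca1+ and highest in Kit-Sca1-. Neighbours in these orders often did not differ beyond their spread, as the comparisons below show. Wherever limma called 0 of a list in one direction below, 0 also passed an unadjusted p under 0.05 in that direction. In bulk RNA, a smaller share of cells in S phase and less RNA of these genes in each cell cannot be told apart.

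**Figure D1:**
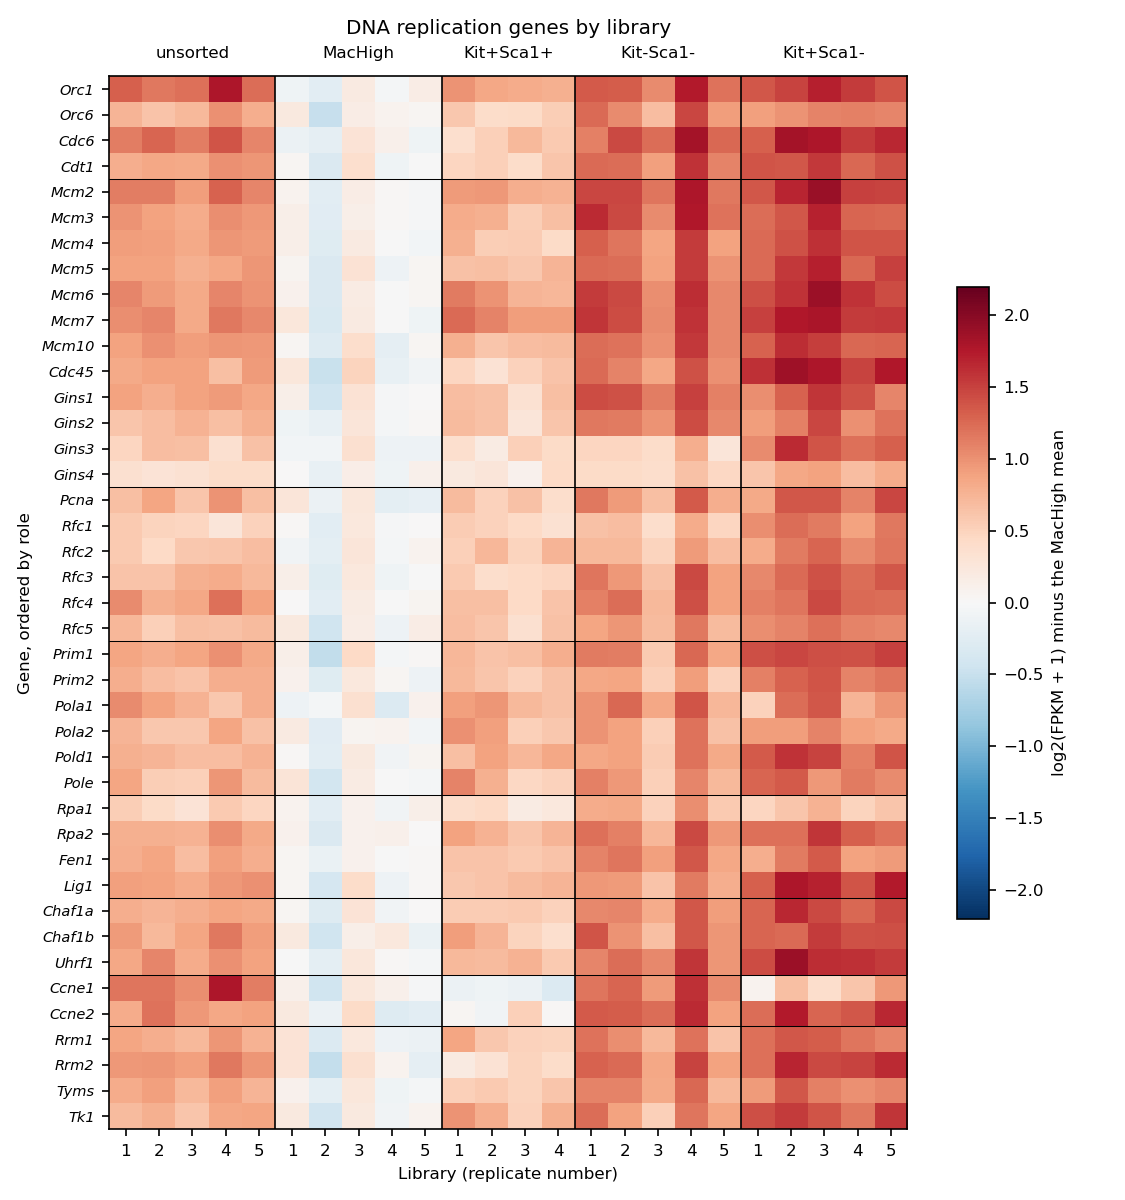
Each cell gives the log2(FPKM + 1) of a gene (rows, ordered by role) in a library (columns, by group and replicate number) minus the MacHigh mean, with red above and blue below it. The 5 MacHigh libraries are the palest block, replicate 2 is the bluest, and Ccne1 is the row that departs from the others in Kit+Sca1+ and Kit+Sca1-.

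Among the genes of origin recognition and licensing, Cdc6, the loader of the MCM ring, showed the widest separation by the F test. It was at 5.30, 5.03, 7.52, 6.47 and 5.49 FPKM in the MacHigh libraries and at 7.96, 8.96, 10.3 and 9.33 FPKM in the Kit+Sca1+ libraries. Cdc6 was at 13.9, 18, 15.2, 23.5 and 15.5 FPKM in Kit-Sca1- and at 16.1, 23.6, 22.7, 19 and 20.7 FPKM in Kit+Sca1-. The unsorted cells held 14.1, 15.8, 14.1, 17.1 and 13.6 FPKM. Every Kit+Sca1+ library lay above every MacHigh library and below every library of the other Mac-low groups, which overlapped each other. On the log2(FPKM + 1) scale, on which all differences here are given, Kit+Sca1- was above MacHigh by 1.62 (SE 0.13, limma adjusted p = 2.02e-10) and Kit+Sca1+ above MacHigh by 0.55 (SE 0.13, adjusted p = 0.00186). Orc1, a subunit of the origin recognition complex, rose from 2.80 ± 0.466 FPKM (SD, n = 5) in MacHigh to 5.86 ± 0.447 FPKM (SD, n = 4) in Kit+Sca1+ and 9.67 ± 1.04 FPKM (SD, n = 5) in Kit+Sca1-. Cdt1, the partner of Cdc6 in loading, and Orc6, another subunit of the complex, were likewise called higher in every Mac-low group than in MacHigh.

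Among the 12 helicase genes, Mcm2 of the MCM ring was the clearest by the F test. Its MacHigh libraries stood at 41.7, 33.6, 44.6, 40.3 and 38.9 FPKM and its Kit+Sca1+ libraries at 76.7, 78.2, 69.6 and 68 FPKM. In Kit-Sca1- Mcm2 was at 112, 112, 91.5, 139 and 90.0 FPKM and in Kit+Sca1- at 104, 128, 151, 114 and 113 FPKM. The unsorted libraries gave 88, 87.9, 76.2, 99.4 and 84.7 FPKM. The MacHigh libraries were all below every other library, and the Kit+Sca1+ libraries all below those of the other Mac-low groups. Against MacHigh, Mcm2 was higher by 1.59 in Kit+Sca1- (SE 0.11, adjusted p = 4.1e-11), and by 0.86 in Kit+Sca1+ (SE 0.12, adjusted p = 3.21e-06). The ring subunit Mcm7 had the largest rise of any member in Kit+Sca1+ against MacHigh, from 23.4 ± 3.83 FPKM (SD, n = 5) to 49.1 ± 5.56 FPKM (SD, n = 4). Cdc45, which joins the ring in the active helicase, had the largest rise in Kit+Sca1-, from 27.6 ± 7.55 FPKM (SD, n = 5) to 89.7 ± 9.53 FPKM (SD, n = 5), and was at 38 ± 3.42 FPKM (SD, n = 4) in Kit+Sca1+. The GINS subunits differed among themselves: Gins3 rose from MacHigh (6.32 ± 1.10 FPKM) to Kit-Sca1- (9.24 ± 1.43 FPKM) and stood at 17.2 ± 2.80 FPKM in Kit+Sca1-, while Gins1 was at 39.3 ± 5.04 FPKM in Kit-Sca1- and 38.3 ± 6.27 FPKM in Kit+Sca1- (SD, n = 5 each). Mcm10, which helps to start the helicase, was at 12.6 ± 2.55 FPKM in MacHigh and 34.7 ± 4.13 FPKM in Kit+Sca1- (SD, n = 5 each).

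In the sliding clamp and its loader, Rfc4, a loader subunit, was at 23.5, 19.5, 26.3, 23 and 24.1 FPKM in MacHigh and at 37.1, 37.1, 31.7 and 36.2 FPKM in Kit+Sca1+. The Kit-Sca1- libraries held 51, 55.9, 38.6, 63.5 and 43.8 FPKM of Rfc4 and the Kit+Sca1- libraries 51.3, 53.7, 65.1, 56.3 and 55.6 FPKM. In unsorted cells Rfc4 was at 48.9, 40.7, 42.6, 54.8 and 43.4 FPKM. No MacHigh library reached the lowest value of any other group, and no Kit+Sca1+ library that of Kit-Sca1- or Kit+Sca1-. Rfc4 was higher than in MacHigh by 1.24 in Kit+Sca1- (SE 0.11, adjusted p = 1.93e-09) and by 0.59 in Kit+Sca1+ (SE 0.12, adjusted p = 0.000282). Pcna, the clamp itself, was at 64.1 ± 11 FPKM in MacHigh, 94.1 ± 8.87 FPKM in Kit+Sca1+ (n = 4), 128 ± 25.2 FPKM in Kit-Sca1- and 152 ± 25.9 FPKM in Kit+Sca1- (SD, n = 5 for the others). The loader subunits Rfc1, Rfc2, Rfc3 and Rfc5 were called higher than in MacHigh in every Mac-low group.

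In the primase and polymerase genes, Pold1, the catalytic subunit of polymerase delta, was at 20.9, 17.3, 24.2, 19.6 and 21.5 FPKM in MacHigh and 33, 38.7, 34.9 and 38 FPKM in Kit+Sca1+. It was at 37.8, 38.9, 30.6, 48.6 and 37.5 FPKM in Kit-Sca1- and 53.8, 63.8, 59.1, 45.7 and 55.5 FPKM in Kit+Sca1-. Unsorted cells gave 36.1, 35.3, 33.5, 33.5 and 35.7 FPKM. MacHigh lay below all other groups without overlap, and the Kit+Sca1+ values fell within the range of Kit-Sca1-, with a difference of -0.08 (SE 0.11, adjusted p = 0.557). Pold1 was higher in Kit+Sca1+ than in MacHigh by 0.78 (SE 0.11, adjusted p = 3.25e-06). The primase subunits Prim1 and Prim2, the polymerase alpha subunits Pola1 and Pola2 and the catalytic subunit of polymerase epsilon, Pole, were called higher than in MacHigh in each Mac-low group. Pola1 had the largest F test p of the 41 members.

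Lig1, the ligase that joins Okazaki fragments, was at 38.5, 28.8, 49.6, 34.7 and 38.2 FPKM in MacHigh and 56.8, 58.1, 61.4 and 63.5 FPKM in Kit+Sca1+. The values of Lig1 were 73.5, 72.5, 58, 84.2 and 65.8 FPKM in Kit-Sca1- and 94.9, 131, 123, 99.2 and 128 FPKM in Kit+Sca1-. In unsorted cells they were 71, 69.7, 66.3, 73.2 and 76 FPKM. Kit+Sca1- stood above every other library, whereas Kit+Sca1+ and Kit-Sca1- overlapped. Lig1 was higher in Kit+Sca1- than in Kit-Sca1- by 0.69 (SE 0.12, adjusted p = 3.98e-05) and higher in Kit+Sca1+ than in MacHigh by 0.67 (SE 0.12, adjusted p = 0.000138). Fen1, the nuclease that trims the fragments, and the single-strand binding subunit Rpa1 were instead about as high or higher in Kit-Sca1- (Rpa1 97.9 ± 14.1 FPKM, Fen1 84.4 ± 12.5 FPKM) as in Kit+Sca1- (Rpa1 86.8 ± 7.44 FPKM, Fen1 81.3 ± 13.1 FPKM; SD, n = 5 each), and neither difference passed the test.

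Uhrf1, which keeps DNA methylation in place behind the fork, had the smallest F test p of all members. It was at 28.5, 24.3, 33.9, 29.1 and 27.7 FPKM in MacHigh and 47.3, 47, 49.3 and 42.8 FPKM in Kit+Sca1+. Uhrf1 was at 61.4, 68.5, 60.1, 86.7 and 57 FPKM in Kit-Sca1- and 78.6, 107, 90.5, 88.7 and 85.3 FPKM in Kit+Sca1-. In unsorted cells it was at 52.5, 61.5, 51, 58.3 and 53.3 FPKM. MacHigh, Kit+Sca1+ and Kit-Sca1- formed separate steps, and the highest Kit-Sca1- library reached into the Kit+Sca1- range. The rise from MacHigh was 0.69 in Kit+Sca1+ (SE 0.11, adjusted p = 2.07e-05) and 1.62 in Kit+Sca1- (SE 0.10, adjusted p = 7.53e-12). The histone chaperone subunits Chaf1a and Chaf1b were also called higher than in MacHigh in every Mac-low group.

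Of the cyclin E genes, Ccne2 followed this order in its group means and Ccne1 did not. Ccne2 was at 10.5, 8.07, 12.3, 7.14 and 7.49 FPKM in MacHigh and 9.23, 8.38, 13.3 and 9.05 FPKM in Kit+Sca1+. It was at 24.1, 24, 22.3, 29.8 and 17.4 FPKM in Kit-Sca1- and 22.1, 32.2, 23.1, 24.6 and 30.2 FPKM in Kit+Sca1-. Unsorted cells held 16.5, 21.6, 18.2, 16.9 and 17.3 FPKM of Ccne2. Its Kit+Sca1+ libraries overlapped MacHigh and lay below the other Mac-low groups, which overlapped each other. Ccne1 was at 15.3, 10.1, 16.9, 15.4 and 13.8 FPKM in MacHigh and 12.8, 13.1, 12.9 and 11.2 FPKM in Kit+Sca1+. The Kit-Sca1- libraries held 33.2, 35.8, 28, 45.3 and 30.2 FPKM of Ccne1, and the Kit+Sca1- libraries 14.9, 22.9, 18.7, 22 and 28.2 FPKM. In unsorted cells Ccne1 was at 33.3, 33, 29.8, 50.9 and 32 FPKM, with replicate 4 far above the others. Ccne1 was thus high in Kit-Sca1- and unsorted cells and low in the MacHigh and Kit+Sca1+ libraries, and its Kit+Sca1- values overlapped those of MacHigh and Kit-Sca1-. Against Kit-Sca1-, Ccne1 was lower by -1.38 in Kit+Sca1+ (SE 0.17, adjusted p = 8.21e-07) and by -0.68 in Kit+Sca1- (SE 0.16, adjusted p = 0.00132).

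Of the genes that supply deoxynucleotides, Tyms, which makes thymidylate, was at 9.34, 7.29, 10.6, 8.07 and 8.43 FPKM in MacHigh and 13, 13.5, 12.6 and 13.8 FPKM in Kit+Sca1+. It was at 19.6, 19.7, 16.3, 22.2 and 14.8 FPKM in Kit-Sca1- and 17.5, 24, 19.8, 18.3 and 19.3 FPKM in Kit+Sca1-. The unsorted values of Tyms were 16, 17.1, 15, 17 and 15.2 FPKM. MacHigh was below Kit+Sca1+ and Kit+Sca1+ below the other 3 groups, with no overlap at either step. Tyms was above MacHigh by 0.55 in Kit+Sca1+ (SE 0.11, adjusted p = 0.000215) and by 1.10 in Kit+Sca1- (SE 0.10, adjusted p = 3.24e-09). Rrm2, the small subunit of ribonucleotide reductase, was at 70.0 ± 17 FPKM (SD, n = 5) in MacHigh, 87.5 ± 7.69 FPKM (SD, n = 4) in Kit+Sca1+ and 195 ± 24.9 FPKM (SD, n = 5) in Kit+Sca1-. The large subunit, Rrm1, and the thymidine kinase Tk1 were called higher than in MacHigh in every Mac-low group.

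**Figure D2:**
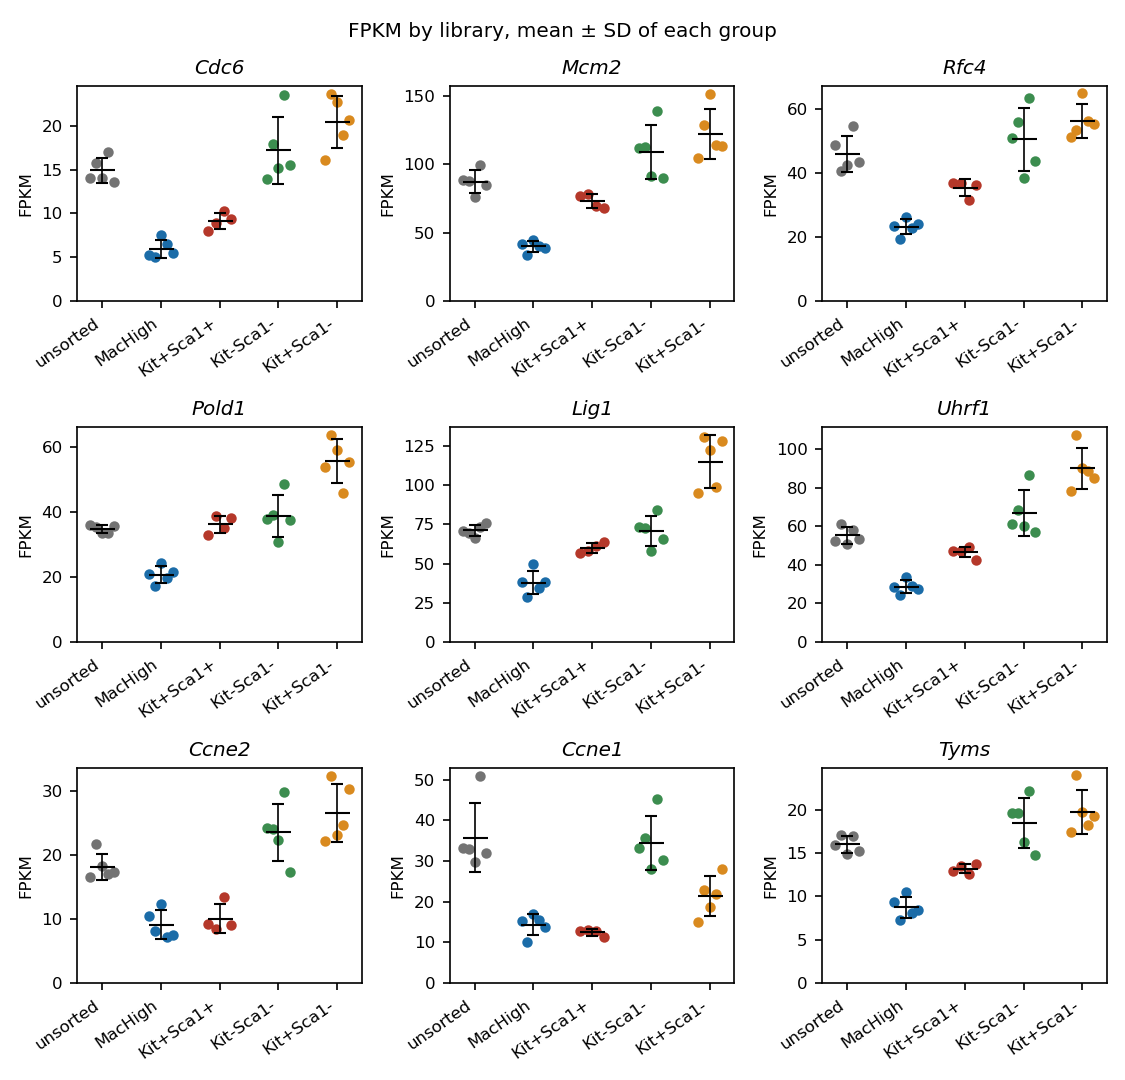
Points give the FPKM of each library for 9 members, with the group mean and SD as bars, for unsorted, MacHigh, Kit+Sca1+, Kit-Sca1- and Kit+Sca1- cells. In 7 panels the Kit+Sca1+ points lie above all MacHigh points, while in the Ccne2 and Ccne1 panels the Kit+Sca1+ and MacHigh points overlap.

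The first comparison asks how the Mac-low cells that carry Kit and Sca-1 differ from the Mac-high cells, the title of the study being about a population enriched for leukaemia stem cells. Replication genes were higher in Kit+Sca1+: 38 of 41 members rose, beside 23.6% of all rows called higher, and 0 fell, beside 22.4% called lower, with a median difference of 0.61 against 0.03 over all rows. Every Kit+Sca1+ library lay above every MacHigh library in 35 members, beside 18.5% of all rows. The largest rises were in the MCM ring, with Mcm7 at 1.04 (SE 0.13, adjusted p = 5.7e-07), Mcm6 at 0.90 (SE 0.13, adjusted p = 6.42e-06) and Mcm2 at 0.86. The 3 members not called were Ccne1 (-0.16, adjusted p = 0.459), Ccne2 (0.13, adjusted p = 0.539) and Rrm2 (0.35, adjusted p = 0.0669). Libraries share a name prefix across groups, and within the 3 prefixes that hold both groups 38 to 41 members were higher in Kit+Sca1+. Red pulp macrophage markers, of which 8 of 9 listed are in the table, summed to 622 to 1656 FPKM in Kit+Sca1+ against 283 to 587 FPKM in MacHigh. Of the 8, 6 were called higher and 1 lower. The macrophage marker Emr1 went against the sum, with a mean of 32.4 FPKM in Kit+Sca1+ against 130 FPKM in MacHigh. Dendritic cell markers (5 of 5 in the table) summed to 181 to 519 FPKM against 108 to 198 FPKM, and these ranges overlap. Of the 4 dendritic cell markers tested, 2 were called higher and the others were not called. NK cell markers (7 of 7) summed to 99.4 to 272 FPKM against 11.5 to 23.1 FPKM. Limma called 6 of the 7 NK markers higher in Kit+Sca1+, among them Ncr1 at 3.18 to 11.0 FPKM against 0.0927 to 0.217 FPKM. Most of the NK sum was the single gene Nkg7, at 70.5 to 259 FPKM in Kit+Sca1+ and 7.22 to 20.6 FPKM in MacHigh. The NK marker not called, Klrb1c, was at 0.261 to 0.898 FPKM against 0.787 to 1.5 FPKM. The part of these cells in the replication values was not tested.

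Between the Kit+Sca1- and MacHigh cells the difference was wider. All 41 members rose in Kit+Sca1-, beside 32.5% of all rows, and 0 fell, beside 30.3%, with a median of 1.32 against 0.03 over all rows, and 36 rose by more than 1 on the log2 scale. In 40 members no library overlapped, beside 21.9% of all rows, the exception being Ccne1. Cdc45 had the largest difference at 1.70 (SE 0.14, adjusted p = 3.12e-10), followed by Mcm7 at 1.63 (SE 0.12, adjusted p = 7.3e-11) and Cdc6. The smallest were Ccne1 at 0.53 and Rpa1 at 0.59. Within the 5 shared prefixes 40 or 41 members were higher in Kit+Sca1-. NK cell markers moved with this comparison, at 257 to 510 FPKM in sum in Kit+Sca1- against 11.5 to 23.1 FPKM, with 5 of 7 called higher and 1 lower. Ncr1, a defining NK receptor, was at 0.647 to 2.52 FPKM in Kit+Sca1- against 0.0927 to 0.217 FPKM in MacHigh. Nkg7 made up nearly all of that sum, at 247 to 498 FPKM in Kit+Sca1-, and Klrb1c was at 0.190 to 0.599 FPKM against 0.787 to 1.5 FPKM in MacHigh. Of the 8 red pulp macrophage markers 7 were called lower and 1 higher in Kit+Sca1-, with sums of 76.7 to 105 FPKM against 283 to 587 FPKM. All 4 dendritic cell markers tested were called lower, with sums over the 5 in the table of 10.6 to 62.9 FPKM against 108 to 198 FPKM. The part of these cells in the result was not tested.

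Kit-Sca1- cells were likewise above MacHigh in all 41 members, beside 24.5% of all rows, and below it in 0, beside 26.2%, with a median of 1.07 against -0.02 over all rows. The libraries did not overlap in 40 members, beside 16.3% of all rows, the exception being Gins3. Mcm3 at 1.42 (SE 0.12, adjusted p = 8.27e-09), Mcm2 at 1.42 (SE 0.11, adjusted p = 3.95e-09) and Cdc6 at 1.38 had the largest differences. In each of the 4 shared prefixes all 41 members were higher in Kit-Sca1-. Red pulp macrophage markers were lower here, at 33.2 to 91.0 FPKM in sum, and all 7 NK markers were called higher, at 51.8 to 212 FPKM in sum. Dendritic cell markers were also lower, in 4 of 4 tested, at 15.8 to 46.1 FPKM in sum, and the part of these cells in the result was not tested. These comparisons share the MacHigh libraries, of which replicate 2 had the lowest mean log2(FPKM + 1) over the 41 members, 4.30, against 4.54 to 4.83 in the other MacHigh libraries. That library also had the highest sum of red pulp macrophage markers in its group.

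**Figure D3:**
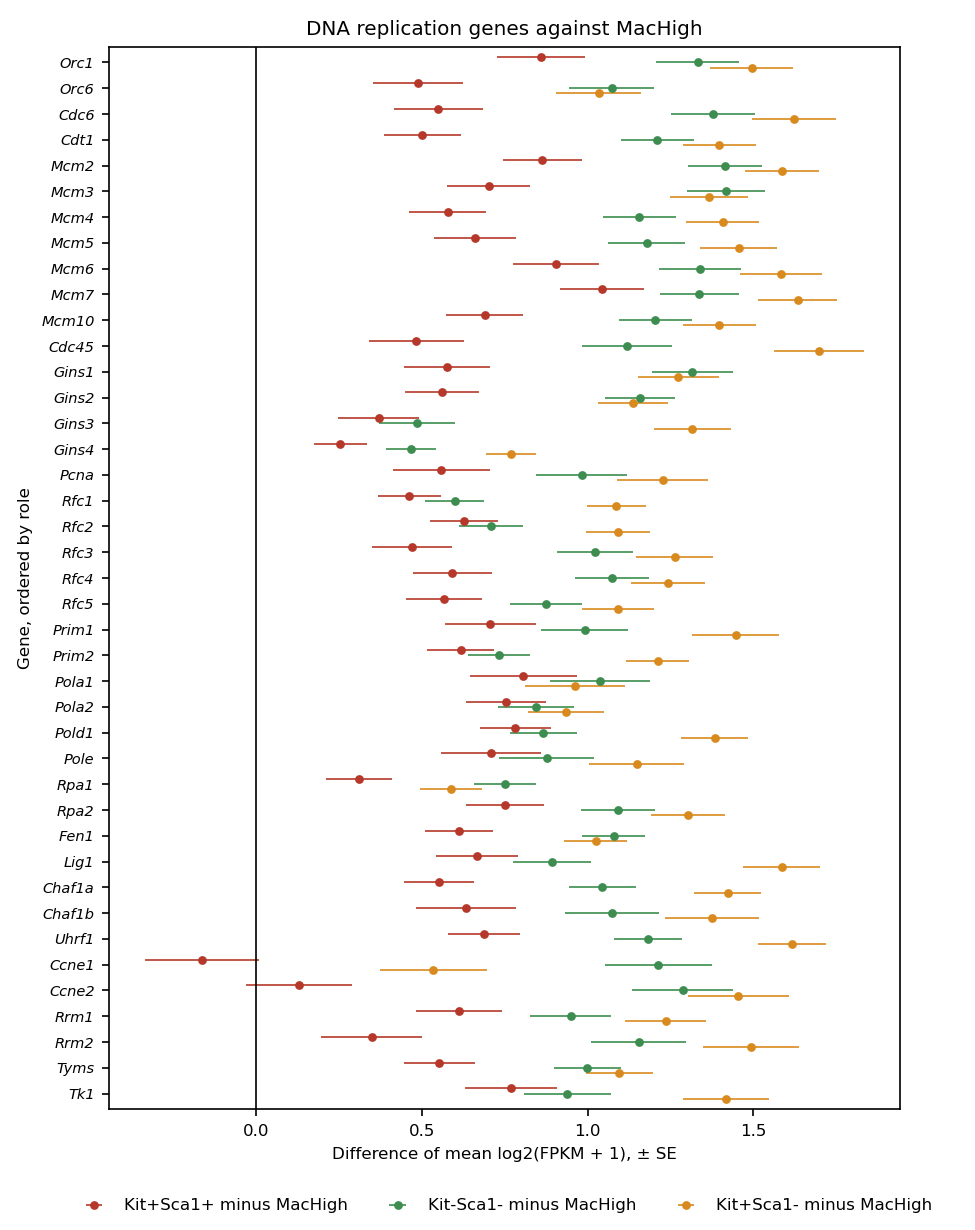
Points give the difference of each Mac-low group from MacHigh in mean log2(FPKM + 1), with bars of 1 SE, for the 41 genes ordered by role. Kit+Sca1+ (red) lies between 0 and the other groups for nearly every gene, and Ccne1 and Ccne2 are the genes whose red points are closest to 0.

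Set against the other Kit+ group, the Kit+Sca1+ cells were lower. Of the 41 members 39 fell, beside 28.5% of all rows called lower, and 0 rose, beside 26.8%, with a median of -0.67 against -0.02 over all rows, and in 38 the libraries did not overlap, beside 19.4% of all rows. Ccne2 differed by -1.33 (SE 0.16, adjusted p = 3.48e-07), Cdc45 by -1.22 (SE 0.14, adjusted p = 2.46e-07) and Rrm2 by -1.14 (SE 0.15, adjusted p = 1.33e-06). The members not called were both subunits of polymerase alpha, Pola1 (-0.16, adjusted p = 0.433) and Pola2 (-0.18, adjusted p = 0.214). Within the 3 shared prefixes 0 to 2 members were higher in Kit+Sca1+. All 8 red pulp macrophage markers were called higher in Kit+Sca1+, where they summed to 622 to 1656 FPKM against 76.7 to 105 FPKM. All 4 dendritic cell markers tested were also called higher, with sums of 181 to 519 FPKM against 10.6 to 62.9 FPKM. Of the 7 NK markers 5 were called higher and 1 lower, while their sum, carried by Nkg7, was 99.4 to 272 FPKM against 257 to 510 FPKM. The part of these cells was not tested.

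Between Kit+Sca1+ and Kit-Sca1- fewer members were called. In Kit+Sca1+ 29 members fell, beside 23.3% of all rows, 0 rose, beside 21.8%, and 12 were not called, with a median of -0.45 against -0.03 over all rows. In 23 members every Kit+Sca1+ library lay below every Kit-Sca1- library, beside 16.5% of all rows. All 4 origin and licensing genes, 10 of 12 helicase genes, all 3 chromatin genes and both cyclin E genes fell, and the largest differences were in Ccne1, Ccne2 (-1.16, SE 0.16, adjusted p = 3.82e-06) and Cdc6 (-0.83, SE 0.13, adjusted p = 2.67e-05). None of the 6 primase and polymerase genes was called, with differences of -0.28 to -0.08, and the others not called were Mcm7, Gins3, Rfc1, Rfc2, Lig1 and Tk1. Whether the roles differ from each other in this step was not tested. Of the 8 macrophage markers 7 were called higher in Kit+Sca1+, with sums of 622 to 1656 FPKM against 33.2 to 91.0 FPKM. All 4 dendritic cell markers tested were called higher as well, with sums of 181 to 519 FPKM against 15.8 to 46.1 FPKM, and 1 NK marker was called higher and 3 lower. The part of these cells in this step was not tested.

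Kit+Sca1- and Kit-Sca1- cells had the smallest median difference of the 6 sorted comparisons. Of the members, 13 were called higher in Kit+Sca1-, beside 24% of all rows, 1 was called lower, beside 26.3% of all rows, and 27 were not called, with a median of 0.24 against -0.02 over all rows. Gins3 led with 0.83 (SE 0.12, adjusted p = 3.53e-06), from 9.24 ± 1.43 FPKM (SD, n = 5) to 17.2 ± 2.80 FPKM (SD, n = 5), followed by Lig1. The member that fell was Ccne1. The libraries did not overlap in 6 members, Cdc45, Gins3, Rfc1, Prim1, Prim2 and Lig1, a share close to the 14.1% of all rows. The name prefixes pair these libraries, and with the prefix as a block 21 members were called higher. Within the 4 shared prefixes the number of members higher in Kit+Sca1- was 21 in prefix 11, 40 in prefix 26, 25 in prefix L and 39 in prefix R. Leaving out Kit-Sca1- replicate 4 raised the count from 13 to 27, and rescaling the libraries to one FPKM sum raised it to 31. The Kit-Sca1- libraries had a mean log2(FPKM + 1) over the members of 5.37 to 5.94, with replicate 4 highest, and the Kit+Sca1- libraries of 5.70 to 6.00. Of the 7 NK markers 6 were called lower in Kit+Sca1- and 1 higher, and Ncr1 was at 0.647 to 2.52 FPKM against 4.42 to 21.5 FPKM in Kit-Sca1-. Of the 6 markers of the leukaemic myeloid cells 4 were called lower, with sums of 451 to 657 FPKM against 1161 to 1397 FPKM. Much of that gap was Mpo and Elane, listed at 0.001 FPKM in Kit+Sca1-, which can be a failed estimate, against 212 to 440 and 265 to 417 FPKM. Among the others, Ptprc (mean 92.1 against 164 FPKM) and Csf1r (10.3 against 108 FPKM) had lower means in Kit+Sca1-. The means of Sfpi1 (351 against 327 FPKM) and Cebpa (75.1 against 62.0 FPKM) were higher there. The part of these differences in the replication values was not tested.

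Unsorted cells, which hold whatever the spleen contained, lay between the lowest and the highest sorted mean in 40 members and above all of them in Ccne1. Compared with MacHigh, all 41 members were higher in unsorted cells, beside 18.2% of all rows, and 0 lower, beside 21.3%, with a median of 0.84 against -0.02 over all rows, and 40 did not overlap, beside 14.5% of all rows. Orc1 differed by 1.34 (SE 0.13, adjusted p = 8.21e-08), Ccne1 by 1.26 (SE 0.16, adjusted p = 6.21e-06) and Cdc6 by 1.20 (SE 0.13, adjusted p = 4.21e-07). Erythroid markers, of which 12 of 14 listed are in the table, summed to 416 to 2160 FPKM in unsorted cells against 19.0 to 116 FPKM in MacHigh, and 11 of the 12 were called higher. Without the 3 unsorted libraries with the highest erythroid sums, a choice made after seeing the data, 40 members were called higher. The 2 unsorted libraries that remained summed to 416 and 421 FPKM, still above every MacHigh library. In the unsorted library with the highest erythroid sum, replicate 4, Orc1, Rpa2, Ccne1 and Rrm2 stood apart above the other unsorted libraries. Of the 7 NK markers 6 were called higher in unsorted cells, at 52.3 to 125 FPKM in sum. The part of these cells in the replication values was not tested.

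Other genes of the same steps, listed by function, were counted in the same fit. The shares of all rows to read these counts against, as above, are 23.6% higher and 22.4% lower for Kit+Sca1+ against MacHigh, and 32.5% and 30.3% for Kit+Sca1-. Of 16 further origin and firing genes, 8 were higher and 1 lower in Kit+Sca1+ than in MacHigh, and 14 were higher and 0 lower in Kit+Sca1-. Gmnn, whose protein geminin restrains Cdt1, was at 41.6 ± 6.31 FPKM (SD, n = 5) in MacHigh and 49.3 ± 0.832 FPKM (SD, n = 4) in Kit+Sca1+, which did not pass the test (0.25, adjusted p = 0.0504), and at 89.5 ± 5.56 FPKM (SD, n = 5) in Kit+Sca1-. Recql4, a helicase needed for firing, rose by 0.65 in Kit+Sca1+ (SE 0.12, adjusted p = 0.000166). Of 21 further fork genes, 17 were higher and 1 lower in Kit+Sca1+ and 19 higher and 2 lower in Kit+Sca1-, with Pole2, a subunit of polymerase epsilon, at 9.96 ± 0.853 FPKM in MacHigh and 30.9 ± 3.32 FPKM in Kit+Sca1- (SD, n = 5 each). Atad5, which unloads the clamp, was higher than in MacHigh by 0.50 in Kit+Sca1+ and by 1.42 in Kit+Sca1- (SE 0.11, adjusted p = 2.34e-10).

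The 11 further nucleotide genes were divided, with 6 higher and 1 lower in Kit+Sca1+ and 7 higher and 1 lower in Kit+Sca1-, each against MacHigh, where 23.6% and 22.4% of all rows were higher and lower in Kit+Sca1+ and 32.5% and 30.3% in Kit+Sca1-. Dut, which removes dUTP, rose from 23.9 ± 3.80 FPKM (SD, n = 5) in MacHigh to 55 ± 4.90 FPKM (SD, n = 4) in Kit+Sca1+. Samhd1, which breaks deoxynucleotides down, ran the other way, at 198 ± 25.1 FPKM (SD, n = 5) in MacHigh, 107 ± 18 FPKM (SD, n = 4) in Kit+Sca1+ and 34.9 ± 11.4 FPKM (SD, n = 5) in Kit+Sca1-. It was lower in Kit+Sca1- than in MacHigh by -2.51 (SE 0.18, adjusted p = 6.15e-11). Of 10 further chromatin genes, 8 rose in Kit+Sca1+ and all 10 in Kit+Sca1- and in Kit-Sca1-, the last beside 24.5% of all rows. Cdca7 and Hells, partners in a remodelling complex linked to DNA methylation, rose from MacHigh to Kit+Sca1+ by 1.11 and 1.01, and to Kit+Sca1- by 2.10 and 1.58, all with a limma adjusted p of 1.67e-06 or less.

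Among 19 E2F and pRb regulators, 6 were higher and 2 lower in Kit+Sca1+ than in MacHigh, beside 23.6% and 22.4% of all rows, and 14 were higher and 2 lower in Kit+Sca1-, beside 32.5% and 30.3%. In Kit+Sca1+ 11 of the 19 were not called, and the median difference was 0.16 against 0.03 over all rows. There 2 of the 19 were lower by 1 or more, the lowest at -1.54. Dtl, whose ubiquitin ligase removes Cdt1 in S phase, was at 8.94 ± 1.43 FPKM (SD, n = 5) in MacHigh, 19.7 ± 1.75 FPKM (SD, n = 4) in Kit+Sca1+, 22.1 ± 4.01 FPKM (SD, n = 5) in Kit-Sca1- and 38 ± 3.40 FPKM (SD, n = 5) in Kit+Sca1-. Tfdp1, the dimer partner of E2F, was higher than in MacHigh by 0.53 in Kit+Sca1+ (SE 0.13, adjusted p = 0.00285) and by 1.65 in Kit+Sca1- (SE 0.13, adjusted p = 1.73e-10).

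Genes of mitosis gave another count in the Kit+Sca1+ cells. Of 28 mitotic genes, 2 (Ttk and Cdk1, named after their values were seen) were higher in Kit+Sca1+ than in MacHigh and 0 lower, beside 23.6% and 22.4% of all rows, with a median of 0.19 against 0.61 for the 41 replication genes. Bub1, a spindle checkpoint kinase, was at 19.6 ± 4.55 FPKM (SD, n = 5) in MacHigh and 22.5 ± 2.04 FPKM (SD, n = 4) in Kit+Sca1+ (difference 0.21, adjusted p = 0.192). Aurka, a kinase of the spindle poles, was at 36.1 ± 8.87 FPKM (SD, n = 5) and 41.9 ± 5.64 FPKM (SD, n = 4) (difference 0.23, adjusted p = 0.159). In Kit+Sca1- 27 of the 28 were higher than in MacHigh, beside 32.5% of all rows, with a median of 0.81, and in Kit-Sca1- 19, beside 24.5%, with a median of 0.43. Against Kit+Sca1-, 26 of the 28 were lower in Kit+Sca1+, beside 28.5% of all rows. The count of 2 was 0 to 7 under the alternatives, 0 without MacHigh replicate 2 and 6 without MacHigh replicate 3, while the count of replication genes stayed at 37 to 39 with any single library left out. The difference between the lists was not tested.

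Averaged over each list, the MacHigh libraries spread from 4.30 to 4.83 in the replication genes and from 4.60 to 5.51 in the mitotic genes, on the log2(FPKM + 1) scale. Kit+Sca1+ libraries stood at 5.11 to 5.25 in the replication genes and 5.17 to 5.51 in the mitotic genes. The groups were therefore apart on the first measure and overlapped on the second. Kit+Sca1- libraries were the highest group mean on both, at 5.86 ± 0.12 and 5.95 ± 0.18 (SD, n = 5).

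**Figure D4:**
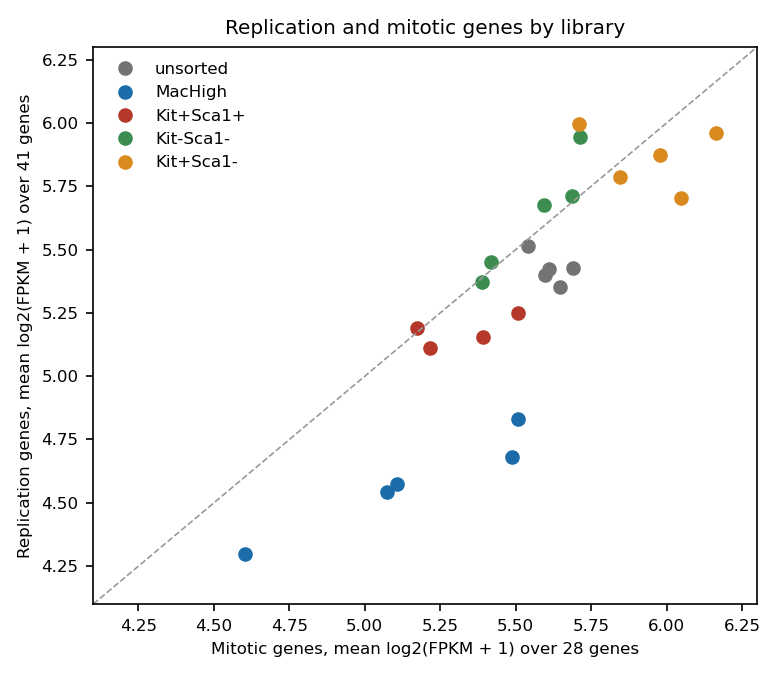
Each point is a library, with the mean log2(FPKM + 1) over 28 mitotic genes on the horizontal axis and over the 41 replication genes on the vertical axis; the dashed line marks equal values. All MacHigh and unsorted points and most Kit+Sca1- and Kit+Sca1+ points lie below the line. The 4 Kit+Sca1+ points, at 5.11 to 5.25 on the vertical axis, lie above all 5 MacHigh points at overlapping horizontal values.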

How the data were processed

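RNA sequencing libraries of 24 samples in 5 groups were used, grouped by their titles. The deposited table holds FPKM values made by the authors, with TopHat2 2.0.4, Cuffdiff and the genome build mm10 per the submitters' processing notes; the gene annotation is not given in the sources used here. FPKM carries no read counts, so the depth and the counting error of each value are unknown. Values were taken as log2(FPKM + 1), which understates the change of low genes. Rows that reached 1 FPKM in 4 libraries or more were fitted with limma 3.58.1 (R 4.3.3, moderated with a mean trend) over all 5 groups, with Benjamini-Hochberg adjustment over the 11599 rows within each comparison and a threshold of 0.05. Lists were described by counts and medians beside all rows. The fit was tested on simulated data.

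The members and lists were chosen with earlier results of these data known. Named were the member of each role with the smallest F test p, the 3 called members with the largest differences in each comparison and any called against the rest, and the 2 genes of each pathway list with the smallest F test p. Deviations from group means were correlated between libraries that share a name prefix: 34 of 38 pairs exceeded 0.1, against 22 of 46 pairs that share a title number. Every prefix pair did so in 5 of 7 comparisons, all but Kit+Sca1+ and Kit+Sca1- against MacHigh, and there the prefix was taken to pair libraries. The reported counts, SE and p-values come from the fit without a block and do not use this pairing. The prefix block entered only as an alternative. Alternatives changed the pseudocount, filter, scaling, library weights, block, groups fitted and libraries included. Promoters came from RefSeq, GRCm38.p6.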

Additional observations from a re-analysis of the deposited data

Results flagged for a closer look

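Within a group, 12 of 205 sets of gene and group held a library whose distance to the nearest other was large for the range of the group, where chance gives about 1 in 20, or 10.25 sets. Unsorted replicate 4, the library with the highest erythroid marker sum, was the highest of its group in Orc1 (11.9 FPKM, others 7.40 to 8.33), Rpa2 (55.1 FPKM, others 45.9 to 48.5), Ccne1 (50.9 FPKM, others 29.8 to 33.3) and Rrm2 (155 FPKM, others 129 to 134).

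MacHigh replicate 2 was lowest in Orc6 (13.4 FPKM, others 20.1 to 22.6) and Rpa2 (21.2 FPKM, others 26.9 to 28.8), and MacHigh replicate 3 was highest in Gins3 (8.27 FPKM, others 5.69 to 6.01). Kit+Sca1+ replicate 3 was lowest in Gins1 (19.2 FPKM, others 24.2 to 24.6) and Rfc4 (31.7 FPKM, others 36.2 to 37.1). Kit+Sca1- replicate 3 was highest in Mcm3 (210 FPKM, others 152 to 167) and Rpa2 (81.4 FPKM, others 62.4 to 67.7). Kit-Sca1- replicate 4 was highest in Gins4 (45.1 FPKM, others 37.8 to 39.4).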

How the results depend on the processing

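Of 289 alternative values for the counts of called members, 284 stayed within 1.5 times the reported count. Most counts above 0 were near the maximum of 41 and could not have risen that far. The exceptions were all between Kit+Sca1- and Kit-Sca1-. There the 13 members called higher became 31 with libraries rescaled to one FPKM sum and 21 with the replicate block by name prefix. The 1 called lower became 2 with library weights. The 1273 alternatives for single genes gave 0 reversals, but these genes were named for a small p or a large difference. In 8 of them, all between Kit+Sca1- and Kit-Sca1-, a gene not called as reported was called. The block changed no other call count by over 1.5 times, and by title number, which does not pair the libraries, that count was 14. Leaving out single libraries gave 12 to 27 higher (27 without Kit-Sca1- replicate 4) and 1 to 2 lower (2 without Kit-Sca1- replicate 3). The other counts ranged, with single libraries left out, over 37 to 39 (Kit+Sca1+ above MacHigh), 37 to 39 (Kit+Sca1+ below Kit+Sca1-) and 23 to 31 (Kit+Sca1+ below Kit-Sca1-), and the rest did not vary.

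Rescaling to one FPKM sum moved the median of all rows and the share of calls that were higher: for Kit+Sca1- against MacHigh from 0.03 to 0.32 and from 51.7% to 71.9% (61.4% with quantile normalization). The share went from 51.3% to 63% for Kit+Sca1+, 48.3% to 58.6% for Kit-Sca1- and 46.1% to 75.7% for unsorted cells against MacHigh. It went from 48.5% to 32% (38.5% with quantile normalization) for Kit+Sca1+ against Kit+Sca1-, and from 47.7% to 71.6% for Kit+Sca1- against Kit-Sca1-. Relative to the median of all rows, the members' median for Kit+Sca1- against MacHigh was 1.28 as reported and 1.31 after rescaling. For Kit+Sca1- against Kit-Sca1- it was 0.26 and 0.29. With unknown depth, no counting error could be given.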
